A study of Mus musculus with 18 samples.

Results

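The data describe 36 genes of mitosis in the embryonic mouse lung. The genes were picked by symbol, and all 36 were found among the 23420 genes of each of 3 expression tables. They encode the cyclins and kinases that start mitosis, the proteins that hold and check chromosomes on the spindle, the ubiquitin machinery that ends mitosis, and the motors and scaffolds that separate and cleave the cell. RNA-seq of whole lungs was done in 3 mouse lines, on embryos taken at 14.5 dpc (days post coitus). Deficient lungs were Rptorf/f; ShhCre/+, Tfamf/f; ShhCre/+ or Cox10f/f; ShhCre/+, and control lungs were Rptorf/+; ShhCre/+, Tfamf/+; ShhCre/+ or Cox10f/+; ShhCre/+, with 3 samples in each of the 6 groups. All 18 samples thus carried a Cre recombinase in the Shh locus, and each control also carried a floxed allele. Cre from this locus is active in the lung epithelium, so the deletion was directed at the epithelium while RNA came from every cell type of the lung. Rptor encodes a subunit of mTOR complex 1 (mTORC1), a growth-promoting kinase complex, Tfam encodes a factor that packages mitochondrial DNA and is needed for its transcription, and Cox10 an enzyme that makes the heme of cytochrome c oxidase. The comparison asks how transcripts of the mitotic machinery in the whole lung differ when each gene is removed from the epithelium.

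Most mitosis genes are transcribed in bursts that follow the cell cycle. Their mRNAs are low in G1, accumulate through G2 and disappear after division, so that in a tissue their level rises with the share of cells that are cycling. Repression in resting cells is known to act through the MuvB complex, which binds a short promoter element called the CHR (cell cycle genes homology region). Activation in G2 uses B-MYB and FOXM1 together with NF-Y, which binds CCAAT boxes. In the embryonic lung both the branching epithelium and the surrounding mesenchyme divide. In whole lungs, fewer dividing cells and less RNA per dividing cell cannot be told apart. At earlier stages the study reported no change in uptake of the DNA label EdU by the epithelium of these mutants. That measure covered neither the other cell types nor the stage sampled here.

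The CHR and CCAAT words were searched in the promoters of the members, from 250 bases before to 50 bases after the start site in RefSeq's promoter table (GRCm38.p6, the same assembly as mm10). An entry was found for 29 of the 36 members. Ccna2, Cdc25c, Foxm1, Aurkb, Incenp, Tpx2 and Kif20a had no entry. The CHR was searched as TTTGAA or TTCGAA and the CCAAT box as CCAAT, on both strands, and a CHR and a CCAAT box may share a base. The CHR was present in 22 of 29 members (75.9%), against 21.7% of all 27025 genes with an entry and 16.1% of the 10662 such genes that were tested in all 3 lines. The CCAAT box was present in 23 of 29 members (79.3%), against 41.1% and 42.3%. Both were present in 20 of 29 members (69%), against 8.61% and 6.63%. Among 68 further mitosis genes with an entry the CHR was present in 54.4%, and among 30 DNA replication genes in 23.3%. In these lists the CCAAT box was present in 60.3% and 63.3%, closer to the members than the share of all genes. Both words were present in 36.8% and 16.7%. A word in this window describes the sequence and is not evidence of a bound site.

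Windows of 30 bases are shown for members with a CHR before the start site that recur in the results. They are the mitotic kinase gene Cdk1 (chr10:69352966-69352995, minus strand), the ubiquitin-conjugating enzyme gene Ube2c (chr2:164769888-164769917, plus strand), the anaphase activator gene Cdc20 (chr4:118437344-118437373, minus strand), the topoisomerase gene Top2a (chr11:99024312-99024341, minus strand), the proliferation marker gene Mki67 (chr7:135716478-135716507, minus strand) and the cytokinesis gene Ect2 (chr3:27153975-27154004, minus strand). All windows lie upstream of the gene's start site and are written 5′ to 3′ on the strand of the gene. Capitals mark the CHR, which reads TTCAAA where it lies on the opposite strand, and any CCAAT box, which then reads ATTGG.
Cdk1: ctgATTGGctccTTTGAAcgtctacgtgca
Ube2c: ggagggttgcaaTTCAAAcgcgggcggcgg
Cdc20: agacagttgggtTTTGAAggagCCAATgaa
Top2a: ctaATTGGtttaTTCGAAaaggcggtcttt
Mki67: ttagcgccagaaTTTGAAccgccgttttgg
Ect2: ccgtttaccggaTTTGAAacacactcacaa
The first base of the CHR shown lay 71 bases before the start site in Cdk1, 29 in Ube2c, 18 in Cdc20, 140 in Top2a, 116 in Mki67 and 114 in Ect2. Further CHR words lay 15 bases before the start site in Cdk1, 98 in Mki67, and 179, 120 and 23 in Top2a. Ect2 held another 39 bases after its start site. Mad2l1, Birc5, Nusap1 and Pttg1 had neither word in the window. Among members with a CHR, 19 of 22 were lower in Rptor-deficient lungs by the test described next, and their median log2 fold change was -0.28. Among members with an entry but no CHR, 4 of 7 were lower and the median was -0.26, and of all genes 18.2% were lower.

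**Figure D1:**
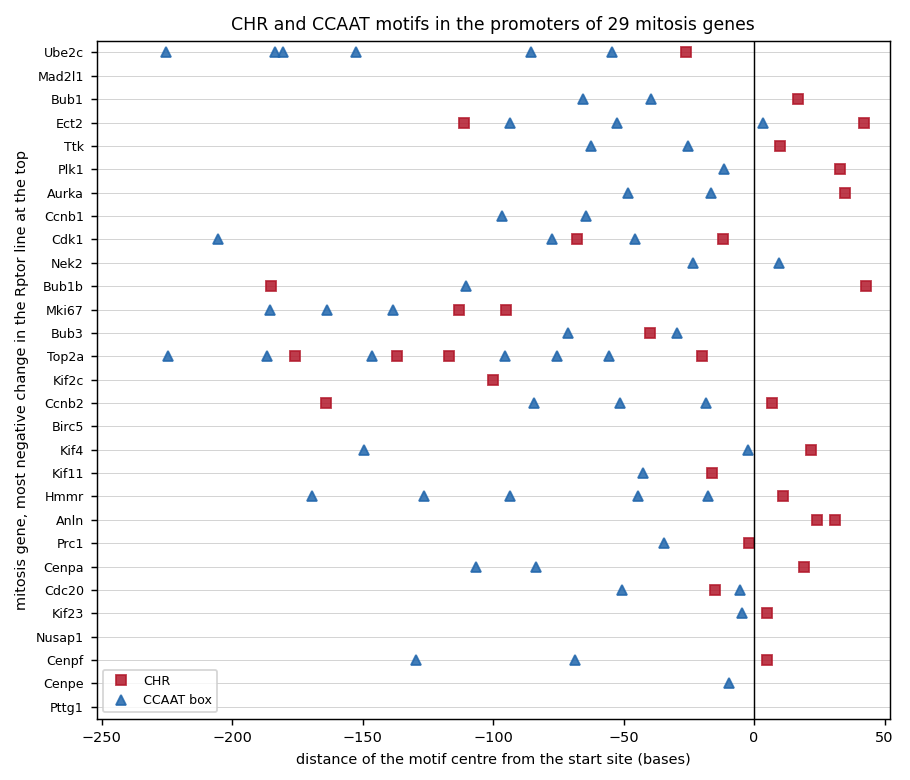
Positions of the CHR (squares) and the CCAAT box (triangles) in the promoters of 29 mitosis genes, with the distance of the centre of each word from the start site in bases on the horizontal axis and genes ordered from the most negative log2 fold change in the Rptor line at the top. The CHR is seen in 22 of the 29 genes, and the rows without any symbol are Mad2l1, Birc5, Nusap1 and Pttg1.

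Values are normalised read counts, which are the read counts of a gene divided by a factor for the depth of the sample. They summed to between 27727202 and 29611064 per sample, and each line was normalised in its own table. Between replicates, log2 values correlated at 0.991 to 0.995 over the genes. The targeted genes did not pass the test in whole lungs. Mean values in control and deficient lungs were 2239.6 ± 52 and 2149 ± 254 for Rptor, 1102 ± 72.5 and 1013 ± 85.1 for Tfam, and 797 ± 38.0 and 794 ± 44.7 for Cox10 (SD, n = 3 each). Since counts of whole genes from all cells were deposited, they do not check the genotype labels. Among the deficient samples, Cox10 replicate 3 stood apart by its markers. Its 10 endothelial markers had a median log2 ratio of 0.66 to the control mean, against 0.12 and 0.01 in the other Cox10-deficient samples, and its mesenchymal markers one of 0.46, against 0.14 and 0.06. For that line, counts and medians of the mitosis genes and of the other cell cycle lists, markers with calls that changed, and the most positive and most negative members are given with and without it.

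Every member was detected well above the filter in every sample, so that all 36 were tested in each line. Single values ranged from 465 (Pttg1) to 32208 (Mki67). Per kilobase of exon, with exon lengths from GENCODE vM21, the highest mean levels in Rptor controls were those of Cdc20, at 3048 ± 95.1 (SD, n = 3). Mki67 at 2774 ± 243, Top2a at 2755 ± 131 and Ube2c at 2731 ± 122 followed, and these did not differ from each other beyond their spread. The lowest were Cdc25c, a phosphatase that activates the mitotic kinase, at 222 ± 11.0 and the securin gene Pttg1 at 262 ± 11.6. The order was not fixed across the tables. Cdk1 controls stood at 1252 ± 35.7 per kilobase in the Rptor table, 1105 ± 35.9 in the Cox10 table and 803 ± 99.7 in the Tfam table, while Foxm1 controls stood at 805 ± 65.2, 791 ± 22.0 and 1201 ± 104. Because the tables were normalised separately, such levels are only set side by side. The median coefficient of variation of the members was 4.26% in Rptor controls and 4.65% in Rptor-deficient lungs. Tfam samples gave 5.81% and 5.05%, and Cox10 samples 3.77% and 7.70%.

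The mitosis genes were lower in Rptor-deficient lungs. Of the 36 members, 30 were lower at an adjusted p below 0.05 and none was higher (limma on log2(value + 1), Benjamini-Hochberg over 14940 genes). At an unadjusted p below 0.05, 32 were lower and 0 higher, against 23.4% and 22.3% of all genes. Among all genes tested, 18.2% were lower and 16.6% were higher. The log2 fold change was below 0 in 35 of 36 members, against 49% of all genes. In 32 members every deficient value lay below every control value, which held for 26% of all genes. The median log2 fold change was -0.31 over the members and 0.01 over all genes. Members together took 0.713% ± 0.023 of the total in control lungs and 0.583% ± 0.024 in deficient lungs (SD, n = 3 each), and the 3 deficient samples were at 0.562%, 0.609% and 0.578%, below all controls. The reduction was moderate in size. In 32 members the mean fell by 10% or more, and that of Ube2c, the most reduced, fell by 34.1%.

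**Figure D2:**
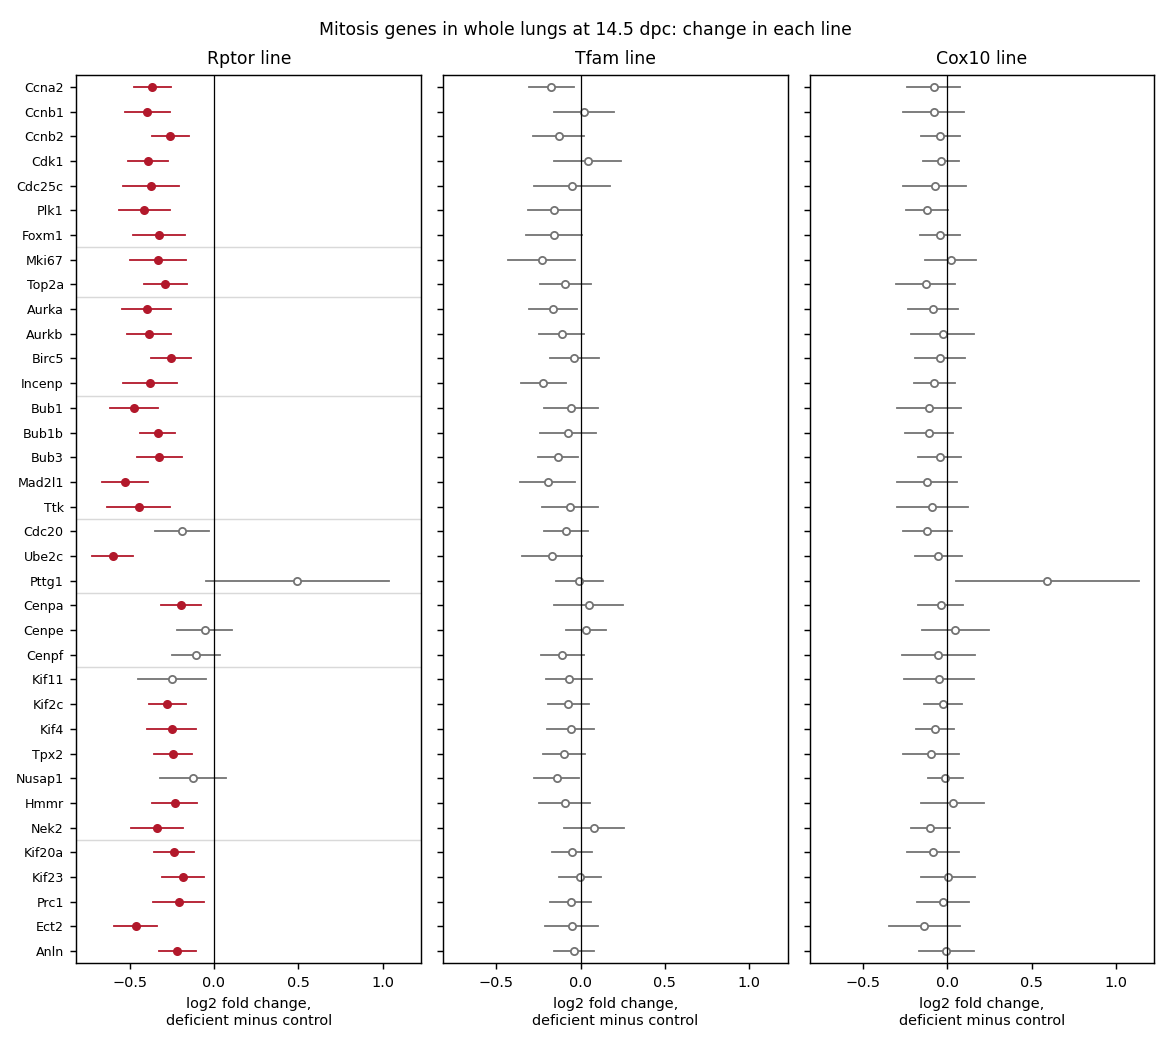
Log2 fold change, deficient minus control, of each of the 36 mitosis genes in each line, with 95% confidence intervals as bars. Genes are grouped by role, and filled red points mark an adjusted p below 0.05. In the Rptor line 30 points are red and all lie to the left of 0, whereas none is red in the Tfam or Cox10 line.

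All 7 members that start mitosis fell in the Rptor line, with a median log2 fold change of -0.37. Cdk1, the catalytic subunit of the kinase that drives mitosis, was at 5972, 6270.1 and 6283 in the 3 controls and at 4563, 4637 and 4917 in the 3 deficient lungs. Its partner Ccnb1, encoding cyclin B1, was at 5872, 5915 and 5958 in controls and at 4169.8, 4714 and 4622 in deficient lungs. For both genes the groups were far apart compared with their spread, with log2 fold changes of -0.39 ± 0.05 and -0.40 ± 0.06 (SE) and adjusted p of 0.000996 and 0.00153 in limma. Plk1, a kinase that promotes mitotic entry and spindle formation, was at 4626, 4669 and 5124 in controls and at 3387, 3837 and 3609 in deficient lungs. It fell by 24.9% (log2 fold change -0.41 ± 0.07, adjusted p = 0.00217). Foxm1, which encodes an activator of many of these genes, was at 4212, 4738 and 4939.6 in controls and at 3603, 3826 and 3640.4 in deficient lungs. Its highest deficient value was below its lowest control value (log2 fold change -0.32 ± 0.07, adjusted p = 0.00725). Ccna2, encoding cyclin A2, Ccnb2, encoding a second B-type cyclin, and Cdc25c had log2 fold changes of -0.37, -0.26 and -0.37.

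The proliferation marker Mki67 and Top2a, which untangles and compacts chromosomes, were the members with the largest values. Mki67 was at 26305, 30717 and 26696 in controls and at 21538, 23397 and 21547 in Rptor-deficient lungs. Top2a was at 24149, 26195 and 24149.9 in controls and at 21007, 20276 and 19721 in deficient lungs. The groups did not overlap for either gene. Mki67 fell by 20.6% (log2 fold change -0.33 ± 0.07, adjusted p = 0.0093) and Top2a fell by 18.1% (log2 fold change -0.29 ± 0.06, adjusted p = 0.00578).

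All 4 members of the Aurora kinase and chromosomal passenger group fell. The passenger complex, made of Aurora B, INCENP, survivin and borealin, corrects faulty spindle attachments. Aurkb was at 3751, 3996 and 4016 in controls and at 2905, 3168 and 2944 in Rptor-deficient lungs, again without overlap (log2 fold change -0.38 ± 0.06, adjusted p = 0.00163). Incenp, its scaffold, had a log2 fold change of -0.38 and Birc5, encoding survivin, of -0.26. Aurka, the kinase of spindle poles, fell by 24.1%, from a mean of 3017 ± 102 to 2288 ± 148 (SD, n = 3).

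The spindle checkpoint holds anaphase back until every chromosome is attached. All 5 of its members fell, with a median log2 fold change of -0.45. Mad2l1, the checkpoint protein that inhibits CDC20, was at 4414, 4609 and 4285 in controls and at 2898, 3267 and 3069 in Rptor-deficient lungs. Bub1, a kinetochore kinase, was at 3697, 4120.1 and 3732 in controls and at 2747, 2904 and 2652 in deficient lungs. Both were among the 3 members with the most negative change, at -0.53 ± 0.06 (adjusted p = 0.00052) and -0.48 ± 0.06 (adjusted p = 0.000962). Ttk, the kinase that starts checkpoint signalling, fell by 26.9%, Bub1b by 20.6% and Bub3 by 20.1%.

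Of 3 genes acting with the anaphase-promoting complex, the ubiquitin ligase that ends mitosis, 1 passed the threshold. Ube2c, the enzyme that delivers ubiquitin to the complex, was at 6924, 7469 and 6911 in controls and at 4627, 4845 and 4572 in Rptor-deficient lungs. This was the most negative change of all members, at -0.60 ± 0.05 (adjusted p = 0.00018). Cdc20, the activator of the complex, was at 5614, 5569 and 5896 in controls and at 4507, 5343 and 5172 in deficient lungs. Its groups did not overlap, but the difference did not pass the threshold (log2 fold change -0.19 ± 0.07, adjusted p = 0.067). With the replicate number as a block, which pairs samples in this line, its adjusted p was 0.0442. With a sample left out, the log2 fold change of Cdc20 was -0.24 to -0.11, and 1 of 6 fits passed (adjusted p up to 0.189).

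Pttg1, encoding the securin that guards cohesin until anaphase, was the only member with a positive log2 fold change in this line. Its controls were at 498, 541 and 532, while deficient samples were at 465, 932 and 928. A low sample and a pair of high samples thus made up the deficient group (log2 fold change 0.50 ± 0.24, adjusted p = 0.14). Without Rptor-deficient replicate 1 the log2 fold change was 0.83 with an adjusted p of 0.000158. The same levels were seen in the Cox10 line, where controls were at 501, 479 and 511 and deficient samples at 909, 959 and 482. In the Tfam table all 6 values lay between 1633 and 1870.2. None of the other 35 members had an SD in the Rptor line as large relative to its mean as Pttg1 in deficient lungs, where it was 34.6%.

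Of the 3 centromere and kinetochore genes, 1 passed the threshold in the Rptor line. Cenpa, the histone that marks centromeres, fell by 12.5% (log2 fold change -0.19 ± 0.05, adjusted p = 0.021), and its adjusted p was 0.0572 when all 18 samples shared a fit and up to 0.083 when a sample was left out (4 of 6 fits past the threshold). Cenpe, a kinetochore motor, was at 4159.6, 4516 and 4236 in controls and at 4523, 4127 and 3797 in deficient lungs. Cenpf, a large kinetochore protein, was at 6557, 6701 and 6048 in controls and at 6055, 6269 and 5619 in deficient lungs. The groups overlapped for both, with log2 fold changes of -0.06 (95% interval -0.22 to 0.11) and -0.11 (-0.25 to 0.04).

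Of the 7 spindle motors and microtubule proteins, 5 fell in the Rptor line, with a median log2 fold change of -0.25 for the group. Nek2, a kinase that splits centrosomes, had a log2 fold change of -0.34 and was at 1852, 1985 and 2017 in controls and at 1435, 1605 and 1595 in deficient lungs. Kif2c, which depolymerises microtubules at centromeres, had -0.28, Kif4, a chromosome-bound motor, -0.25, Tpx2, an activator of Aurora A, -0.24, and Hmmr, a spindle-binding protein, -0.23. The calls of Kif4 and Hmmr were each made in 3 of the 6 fits that left out a sample (adjusted p up to 0.0626 and 0.0594). Kif11, the motor that pushes spindle poles apart, was at 5614, 7290.1 and 6079.5 in controls and at 5197, 5311 and 5359.8 in deficient lungs. It did not pass the threshold (log2 fold change -0.25 ± 0.09, adjusted p = 0.057), and with the replicate block its adjusted p was 0.0292. With a sample left out, the log2 fold change of Kif11 was -0.33 to -0.14, and 1 of 6 fits passed (adjusted p up to 0.12). Nusap1, which bundles spindle microtubules, had a log2 fold change of -0.13 (95% interval -0.32 to 0.07) and overlapping groups.

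All 5 genes of the central spindle and of cytokinesis fell, with a median log2 fold change of -0.22. Ect2, the exchange factor that activates RhoA at the cleavage site, was at 3205, 3367 and 3057 in controls and at 2322, 2342 and 2304 in Rptor-deficient lungs. Its log2 fold change of -0.47 ± 0.05 (adjusted p = 0.000574) was the most negative of the group. Kif20a and Kif23, motors of the central spindle, had -0.24 and -0.19, Prc1, which crosslinks its microtubules, -0.21, and Anln, a scaffold of the contractile ring, -0.22. The call of Prc1 was close to the threshold (adjusted p = 0.0406) and was not made after scaling to library totals (0.0661) or without a filter (0.0524). With a sample left out it was made in 1 of 6 fits, and that of Kif23 in 3 of 6 (adjusted p up to 0.117 and 0.0959).

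**Figure D3:**
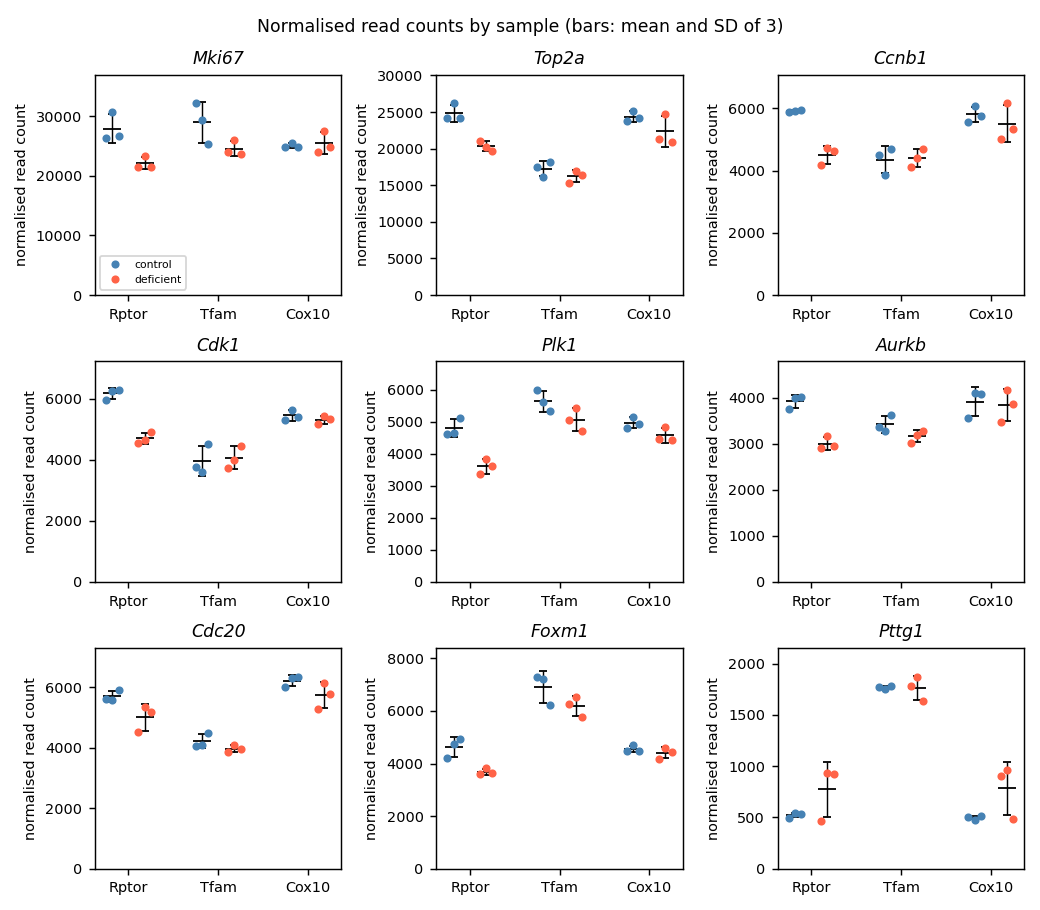
Normalised read count of 9 mitosis genes in every sample of each line, with controls in blue, deficient lungs in red and bars for the mean and SD of 3 samples. Deficient samples of the Rptor line lie below its controls in every panel other than Pttg1, where the Rptor and Cox10 lines hold values of 465 to 541 and of 909 to 959 and the Tfam line lies at 1633 or above.

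Annotated exons of 12 members share bases with another gene, in 6 of them over 10% of the exonic bases. The pairs were Kif20a with Cdc23 (29.3%), Ube2c with Tnnc2 (22.8%), Kif4 with Pdzd11 (15.1%), Cdc25c with Gm3550 (12.7%), Ccna2 with Exosc9 (12.5%) and Prc1 with Rccd1 (11.1%), each on opposite strands in GENCODE vM21. Whether counting used strand is not given in the sources used here, so reads of these pairs may be mixed. In Rptor controls Tnnc2 was at a mean of 20.3 against 7101 for Ube2c, while Cdc23 was at 4318. Exosc9 was at 1017 and had a log2 fold change of -0.36 ± 0.23 (adjusted p = 0.255) in the Rptor line, beside -0.37 for Ccna2. The log2 fold changes of Cdc23, Pdzd11 and Rccd1 were -0.03, -0.06 and -0.10. A gene named as a pseudogene of the member exists for Ccnb1, Ccnb2 and Kif4, whose reads could be split with it.

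In Tfam-deficient lungs no member passed the threshold (limma, 15053 genes tested, of which 2.63% were lower and 2.03% higher). At an unadjusted p below 0.05, 8 members were lower and none was higher, against 9.1% and 8.29% of all genes. This count of 8 was 2 without control replicate 1 (against 6.77% of all genes lower), 5 without control replicate 2 (7.29%), and 3 without deficient replicate 1 (8.02%) or deficient replicate 3 (6.79%). Counts of 2 or 3 of 36 were thus near the share of all genes. Without control replicate 3, 10 were lower and 1 higher, against 13% and 11.9% of all genes. The log2 fold change was below 0 in 31 of 36 members, against 49.7% of all genes, and the median was -0.07. In 7 members all deficient values lay below all controls, against 11.8% of all genes. Members took 0.661% ± 0.022 of the total in control and 0.615% ± 0.019 in deficient lungs, and the deficient samples, at 0.594%, 0.632% and 0.619%, lay below all controls here too. The lowest bound of any member's 95% interval was -0.43.

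The most negative estimates in the Tfam line were those of Mki67, Incenp and Mad2l1. Mki67 was at 32208, 29474 and 25348 in controls and at 24073, 25996 and 23758 in deficient lungs, with overlap (log2 fold change -0.23 ± 0.09, adjusted p = 0.203). Incenp was at 5544, 6049 and 5536 in controls and at 4886, 5138 and 4669.6 in deficient lungs, without overlap (-0.22 ± 0.06, adjusted p = 0.0734). Mad2l1 was at 4073, 3691 and 3381 in controls and at 3391, 3259 and 3064 in deficient lungs (-0.20 ± 0.07, adjusted p = 0.192). Control replicate 3 held the lowest control value of all 3. Without it 4 members passed the threshold, namely Mki67, Incenp, Mad2l1 and Ube2c, all lower, while 4.03% of all genes were lower and 3.43% higher in that fit. The most positive estimates were those of Nek2 (0.08), Cenpa (0.05) and Cdk1 (0.04), and the groups overlapped in all 3.

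Among the other members followed in every line, the groups overlapped. Cdk1 was at 3759, 3606 and 4524 in Tfam controls and at 3736, 4000.4 and 4466 in deficient lungs. Ccnb1 was at 4489, 3868 and 4698 in controls and at 4105, 4402 and 4702 in deficient lungs. Neither gene moved in a common direction across the 3 deficient samples. Plk1 (5992, 5623 and 5329 against 5066, 5432 and 4701) and Foxm1 (7288, 7219 and 6217 against 6264, 6536 and 5765) both had an estimate of -0.16. Aurkb (3364, 3280.3 and 3625 against 3018, 3197 and 3285) had -0.11, and Top2a (17505, 16180.0 and 18117 against 15329, 16914 and 16417) and Cdc20 (4069.9, 4099 and 4473 against 3853, 4071 and 3967) both had -0.09. Ube2c (8764, 8344 and 7091 against 6984, 7619 and 6885) had -0.17.

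In Cox10-deficient lungs no member passed the threshold either (limma, 14937 genes tested, of which 0.335% were lower and 0.141% higher). At an unadjusted p below 0.05 none was lower, against 6.62% of all genes, and 1 was higher (Pttg1), against 6.4%. The log2 fold change was below 0 in 31 of 36 members, against 49.6% of all genes, and the median was -0.05. The unadjusted count rested on which samples entered. It was 12, all lower, without deficient replicate 2 (against 9.21% of all genes lower), 5 lower and 1 higher with the replicate block (against 7.93% and 7.86%), and 0 without deficient replicate 1 or any single control. A lack of overlap was seen in 1 member, Nek2, at 1893, 1964 and 1899.8 in controls and at 1743, 1864 and 1762 in deficient lungs, against 10.8% of all genes. Members took 0.692% ± 0.021 of the total in control and 0.671% ± 0.044 in deficient lungs. The lowest bound of any member's 95% interval was -0.35.

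The deficient samples of the Cox10 line differed among themselves. Relative to the control mean, the median log2 ratio of the members was -0.14 in replicate 1, 0.04 in replicate 2 and -0.08 in replicate 3. In replicate 2, 9 of 36 members were below the control mean, against 35 in replicate 1 and 29 in replicate 3. Without replicate 3, the sample with high endothelial markers, the median log2 fold change was -0.05, 30 of 36 members were below 0 (against 49.3% of all genes) and in 3 both deficient values lay below all controls (against 16.5%). At an unadjusted p below 0.05 none was lower and 1 was higher, against 7.86% and 6.86% of all genes, and 1 member passed the adjusted threshold as higher, against 0.482%. This was Pttg1, which had a log2 fold change of 0.59 ± 0.24 with all samples (adjusted p = 0.358) and 0.91 without it (adjusted p = 0.00143).

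The most negative estimates in the Cox10 line were those of Ect2, Top2a and Plk1. Ect2 was at 2739, 3203 and 3014 in controls and at 2405, 3009 and 2752 in deficient lungs (log2 fold change -0.14, adjusted p = 0.537). Top2a was at 23744, 25168 and 24195 against 21379, 24772 and 20917 (-0.13, adjusted p = 0.496), and Plk1 at 4821, 5161 and 4946 against 4469, 4837 and 4429.6 (-0.12, adjusted p = 0.388). The groups overlapped for all 3. Cenpe (0.05) and Hmmr (0.03) had the most positive estimates after Pttg1. Without deficient replicate 3 the estimates were -0.15 for Ect2, -0.08 for Top2a, -0.10 for Plk1, 0.10 for Cenpe and 0.02 for Hmmr, and none of these passed the threshold.

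Values of the other members followed in every line also overlapped in the Cox10 line. Mki67 was at 24838, 25608 and 24858 in controls and at 24106, 27584 and 24797 in deficient lungs, with an estimate of 0.02. Cdk1 was at 5305, 5649 and 5406 against 5175, 5435 and 5335 (-0.04), and Ccnb1 at 5571, 6073 and 5768 against 5015, 6162 and 5330.1 (-0.08). Deficient replicate 2 held the highest deficient value of each of these genes. Aurkb (3555, 4101 and 4085 against 3483, 4164 and 3871) had -0.03, Foxm1 (4494, 4695 and 4461 against 4184, 4598 and 4455) -0.05, and Cdc20 (6005, 6299 and 6332 against 5288, 6136 and 5772) -0.12. Ube2c, the most reduced member in the Rptor line, was at 5459, 5922 and 5715 against 5087, 5650.4 and 5749 (-0.05).

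Differences of the effects between lines were tested in limma with all 18 samples, over 14550 genes. The tests of the Rptor line against the other lines share the 6 Rptor samples. The Rptor effect was more negative than the Tfam effect in 6 of 36 members at an adjusted p below 0.05, and none was less negative. Among all genes the effects differed in 11.2%, with the Rptor effect the more negative in 6.35%. The 6 members were Ube2c (difference of log2 fold changes -0.43 ± 0.10, adjusted p = 0.0117), Cdk1 (-0.43 ± 0.11, 0.0146), Bub1 (-0.42 ± 0.11, 0.0227), Ccnb1 (-0.42 ± 0.11, 0.0261), Nek2 (-0.41 ± 0.10, 0.0127) and Ect2 (-0.41 ± 0.11, 0.0245). They cover mitotic entry, the checkpoint, ubiquitination, the centrosome and cytokinesis. Differences of the same sign at an unadjusted p below 0.05 were found in 22 members, against 15% of all genes. The count of 6 fell to 3 without Rptor control replicate 2 (4.28% of all genes), Tfam control replicate 2 (3.49%), Tfam-deficient replicate 2 (4.10%) or Tfam-deficient replicate 3 (3.88%), and was 10 without Tfam control replicate 3 (9.39%). With the replicate number as a block in every line it was 11 (8.96%), though the numbers paired the samples of the Rptor line alone.

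The Rptor effect was more negative than the Cox10 effect in 9 of 36 members, and none was less negative, while effects differed in 7.48% of all genes and the Rptor effect was the more negative in 4.21%. The largest difference was that of Ube2c (-0.55 ± 0.10, adjusted p = 0.00295). Mad2l1 (-0.41 ± 0.11, 0.0283), Cdk1 (-0.36 ± 0.11, 0.0469), Aurkb (-0.36 ± 0.10, 0.0361), Aurka (-0.32 ± 0.09, 0.0446), Incenp (-0.30 ± 0.09, 0.0466), Ccna2 (-0.29 ± 0.08, 0.0439), Bub3 (-0.28 ± 0.08, 0.0321) and Kif2c (-0.25 ± 0.07, 0.0253) followed. At an unadjusted p below 0.05 the difference had this sign in 25 members, against 12.6% of all genes. Several adjusted p-values were near 0.05, and the count ranged from 1 to 12 when single samples were left out. It was 1 without Rptor control replicate 2, Cox10 control replicate 1 or Cox10-deficient replicate 2, where the Rptor effect was the more negative in 2.97%, 2.73% and 3.33% of all genes, so that 1 of 36 members was near the share of all genes. It was 2 without Rptor control replicate 3 (3.53%), Rptor-deficient replicate 1 (3.53%) or Cox10 control replicate 3 (2.71%), and 5 without Rptor control replicate 1 (3.11%) or Rptor-deficient replicate 3 (3.90%). Without Cox10-deficient replicate 3 it was 12 (6.27%), and with the replicate block 15 (5.58%).

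Ube2c and Cdk1 were the members past the threshold in both comparisons. For Ube2c this held in all 18 fits that each left out a sample, with adjusted p up to 0.0369 against the Tfam line and up to 0.0113 against the Cox10 line. Cdk1 against the Tfam line also passed in all 18 fits, as did Nek2, while Cdk1 against the Cox10 line passed in 6 of 18 (adjusted p up to 0.114). The Tfam and Cox10 effects differed in no member (1 at an unadjusted p below 0.05, against 0.055% of all genes after adjustment and 4.56% before). That member was Mki67, with log2 fold changes of -0.23 (Tfam) and 0.02 (Cox10).

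**Figure D4:**
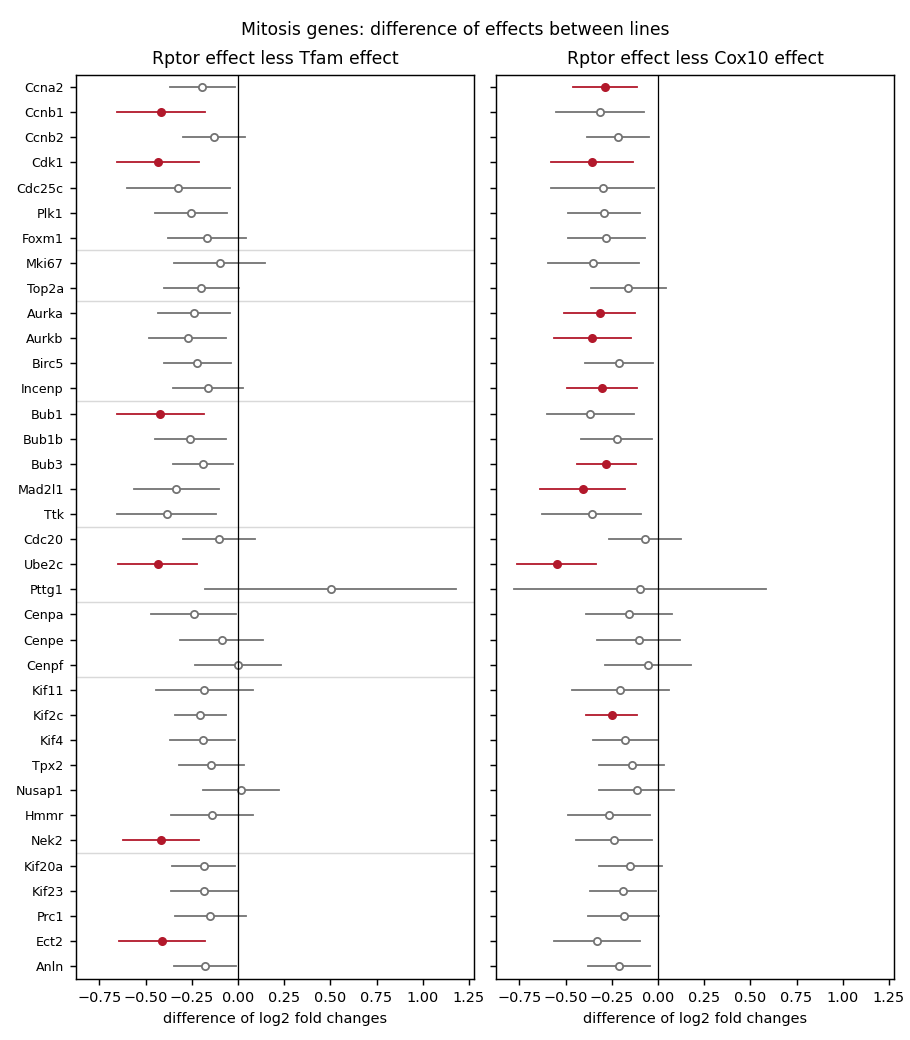
Difference between the log2 fold change in the Rptor line and that in the Tfam line (left) or the Cox10 line (right) for each of the 36 mitosis genes, with 95% confidence intervals as bars and filled red points for an adjusted p below 0.05. Red points number 6 on the left and 9 on the right, all at negative values, and Ube2c and Cdk1 are red in both panels.

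Further lists of cell cycle genes were counted with the same tests. Of 77 other mitosis genes tested, 45 were lower and none was higher in Rptor-deficient lungs (median log2 fold change -0.25), against the 18.2% of all genes that were lower. The most negative among them were Gtse1 (-0.52), a G2 protein that binds microtubules and p53, Gsg2 (-0.48), the haspin kinase of histone H3, and Melk (-0.46), a mitotic kinase. In the Tfam line 1 of them was lower (Cdca3, a cell division gene, -0.25), against 2.63% of all genes, and 13 were lower at an unadjusted p below 0.05, against 9.1%, with a median of -0.07. No call was made for Cox10-deficient lungs, where 2 were lower and 1 higher at that unadjusted threshold, against 6.62% and 6.4% of all genes, and the median was -0.05.

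Of 39 DNA replication genes, 31 were lower and none was higher in the Rptor line (median -0.31), against 18.2% of all genes lower. Fen1, the flap endonuclease, had -0.61, Rrm2, a subunit of ribonucleotide reductase, -0.60, and Orc2, of the origin recognition complex, -0.56. In the Tfam line 2 were lower, Tyms (thymidylate synthase, -0.31) and Mcm3 (of the replicative helicase, -0.21), against 2.63% of all genes, 16 were lower at an unadjusted p below 0.05, against 9.1%, and the median was -0.13. In the Cox10 line none passed, while 24 were lower at an unadjusted p below 0.05, against 6.62% of all genes, and the median was -0.15. Without Cox10-deficient replicate 3, 20 were lower at that threshold (against 7.86%) and the median was -0.12.

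Among 18 genes of the transcription factors that act on mitosis genes (MuvB subunits, B-MYB and E2F proteins), 9 were lower and none was higher in the Rptor line, with a median of -0.25, against 18.2% of all genes lower. The E2F genes E2f2 (-0.48), E2f7 (-0.44) and E2f4 (-0.43) were the most negative. E2f2 (-0.38) and E2f7 (-0.37) were also lower in the Tfam line (2 of 18, against 2.63% of all genes), where 4 were lower at an unadjusted p below 0.05 (against 9.1%) and the median was -0.08. None passed in the Cox10 line, where 3 were lower at an unadjusted p below 0.05 (against 6.62%) and the median was -0.07. Of 9 G1 cyclins and their kinases, 6 were lower in the Rptor line (median -0.26, against 18.2% of all genes lower), with Ccne1 at -0.66, Ccnd2 at -0.49 and Ccne2 at -0.41. None passed in the Tfam or Cox10 line, where 4 and 1 were lower at an unadjusted p below 0.05 (against 9.1% and 6.62%) and the medians were -0.16 and -0.15. Of 6 inhibitors of cyclin-dependent kinases tested in the Rptor line, 2 were higher and none was lower (median 0.27), where 16.6% of all genes were higher. These were Cdkn1c (0.45 ± 0.10, adjusted p = 0.0108) and Cdkn1b (0.28 ± 0.07, adjusted p = 0.0159), which hold cells in G1. Cdkn2b, named after its values were seen, had -0.56 ± 0.40 (adjusted p = 0.303). None of 6 passed for Tfam and none of 5 for Cox10 (2 and 0 higher at an unadjusted p below 0.05, against 8.29% and 6.4% of all genes), with medians of 0.05 and 0.11. Without Cox10-deficient replicate 3 no gene of the other cell cycle lists passed, and the medians were -0.03 for the 77 other mitosis genes, -0.03 for the transcription factors, -0.08 for the G1 genes and 0.04 for the inhibitors. In these lists 3, 2, 1 and 1 genes were then lower at an unadjusted p below 0.05, against 7.86% of all genes, and none was higher.

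Marker genes of the cell types in the lung moved in the same samples. Their part in the values of the mitosis genes was not tested. In Rptor-deficient lungs 10 of 12 epithelial markers were lower and none was higher, and their summed level was 41666 to 47953 in controls and 16405 to 23287 in deficient lungs. Cdh1 (-1.89), Sftpc (-1.86) and Krt8 (-1.35) fell most. Mesenchymal markers were higher in 8 of 12 (Dcn 1.44, Col1a1 1.14, Col1a2 1.08), from sums of 228412 to 258752 in controls to 431104 to 461723. Endothelial markers were higher in 9 of 10 (Prox1 0.57, Sox17 0.55, Tie1 0.49), from 35103 to 36835 in controls to 44450.0 to 50408. The sums of these 3 lists did not overlap between the groups. Among all genes 18.2% were lower and 16.6% higher.

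The smaller compartments of the Rptor line moved in both directions. Leukocyte markers were higher in 8 of 8 (C1qa 1.12, Csf1r 0.93, C1qb 0.88), with sums of 3609 to 4075 in controls and 5699 to 6764 in deficient lungs. Mesothelial markers were higher in 3 of 5 (Lrrn4 1.12, Wt1 1.08, Upk3b 0.70), with sums of 3388 to 4768 and 6747 to 7526. Msln, another marker of this list and named after its values were seen, had -0.93 ± 0.37 (adjusted p = 0.0856). Smooth muscle markers were lower in 5 of 6 (Cnn1 -1.66, Actg2 -1.53, Myh11 -1.51), while Acta2 was higher (0.47), and the sums overlapped at 17166 to 23094 and 17250.5 to 26229. Of 9 erythroid markers tested, 1 was lower (Tfrc, -0.93), with overlapping sums of 42341 to 56134 and 29743 to 68209. Erythroid precursors also divide, and the defining markers Hba-a1 and Hba-a2 were listed at 0 in all 6 samples. Other organs gave small sums. Heart muscle markers summed to 1402 to 4126 in controls and 1411 to 2692 in deficient lungs (1 of 6 higher, Myh7 1.35), thymus lymphocyte markers to 173 to 197 and 182 to 239 (1 of 2 higher, Cd4 1.18, with Cd3e listed at 0), and neuronal and glial markers to 536 to 694 and 457 to 535 (1 of 7 lower, Ret -2.26). Among all genes 16.6% were higher and 18.2% lower, so that the counts for heart, erythroid and neuronal markers were near or under the share of all genes.

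In the Tfam line 5 of 12 epithelial markers were lower (Cdh1 -0.55, Elf3 -0.50, Grhl2 -0.39), with sums of 38181 to 40429 in controls and 29346 to 34046 in deficient lungs. Among all genes in this line 2.63% were lower and 2.03% higher. No mesenchymal, endothelial, erythroid, leukocyte, mesothelial or thymic marker passed, while 5, 4, 1, 5, 2 and 0 of them were higher at an unadjusted p below 0.05, against 8.29% of all genes. At that threshold 9 epithelial markers and 1 mesenchymal marker were lower, against 9.1%. Smooth muscle markers were lower in 5 of 6 (Myocd -0.87, Myh11 -0.84, Actg2 -0.64), Ret was lower (-1.59), and 1 of 7 heart muscle markers was higher (Nppa 2.29), with heart sums of 5610.1 to 14451 and 9449 to 25842. In the Cox10 line 1 epithelial marker (Grhl2 -0.54) and 1 smooth muscle marker (Myocd -1.31) were lower, and no marker of the other lists passed. Among all genes in that line 0.335% were lower and 0.141% higher. At an unadjusted p below 0.05, 8 epithelial and 5 smooth muscle markers, 1 mesenchymal marker and 1 neuronal or glial marker were lower, against 6.62% of all genes. At that threshold 3 mesenchymal markers, 1 erythroid and 1 leukocyte marker were higher, against 6.4%. The epithelial sums were 26555 to 27070.1 in controls and 17764 to 26993 in deficient lungs. Without Cox10-deficient replicate 3, a choice made after seeing the data, 9 of 12 epithelial markers were lower at the adjusted threshold. Their median log2 fold change was -0.53, against -0.40 with all samples. Calls over all genes rose too, to 1.2% lower and 0.482% higher. In that fit 2 smooth muscle markers were lower (Acta2 and Myocd), 1 mesenchymal marker (Pdgfra) and 2 erythroid markers (Hba-x and Hbb-y) were higher, and the endothelial median was 0.07 in place of 0.26.

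By sample, the median log2 ratio of epithelial markers to the control mean in deficient replicates 1, 2 and 3 was -1.22, -1.01 and -0.93 in the Rptor line, where that of the mitosis genes was -0.34, -0.26 and -0.32. In the Tfam line the epithelial values were -0.36, -0.24 and -0.28 and the mitosis values -0.14, -0.03 and -0.07. In the Cox10 line they were -0.61, -0.44 and -0.13 and -0.14, 0.04 and -0.08. Deficient replicate 1 thus had the lowest value of both lists in each line. Replicates 2 and 3 stood in opposite order in these lists in the Rptor and Cox10 lines, and in the same order in the Tfam line.

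**Figure D5:**
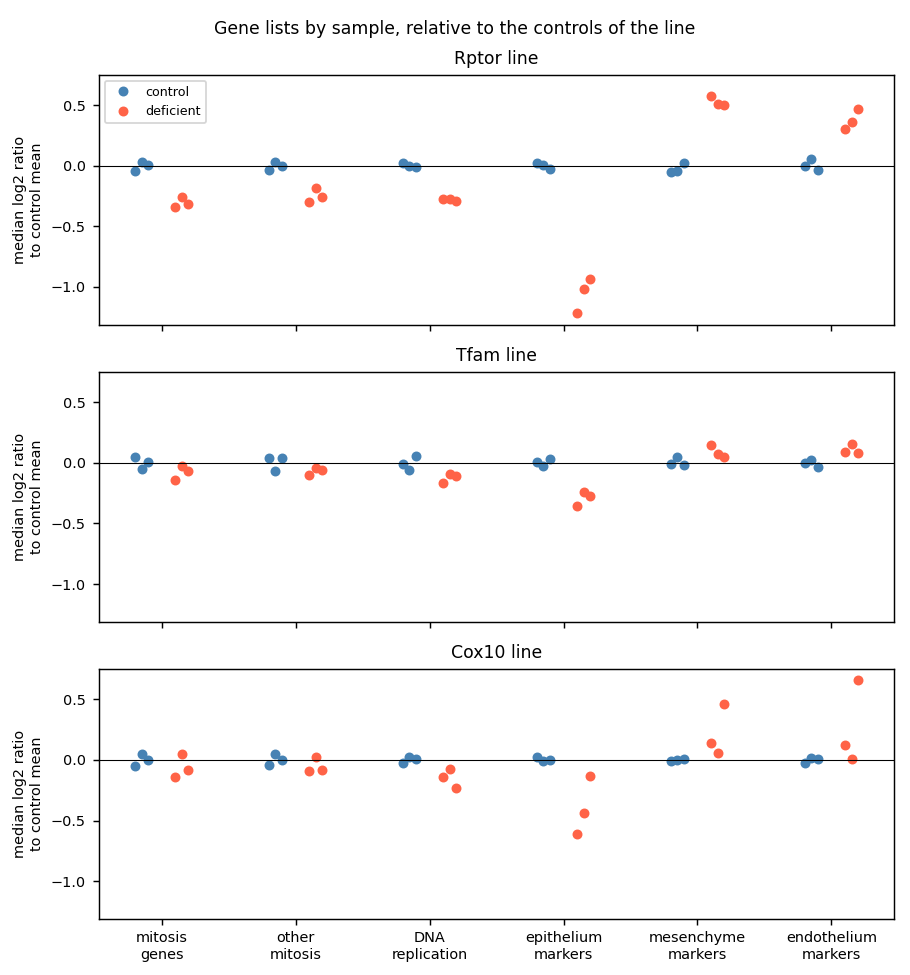
Median log2 ratio to the control mean for 6 gene lists in each sample, by line, with controls in blue and deficient lungs in red. In the Rptor line the deficient samples lie below 0 for mitosis, other mitosis, replication and epithelial genes and above 0 for mesenchymal and endothelial genes, while Cox10-deficient replicate 3 stands at 0.66 for endothelial genes.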

How the data were processed

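RNA was extracted from whole embryonic lungs with TRIzol and a column kit. Sequencing used a BGISEQ-500 per the study's methods, while the labels describe Illumina libraries. The submitters' processing notes name mm10, Trim Galore, HISAT2, featureCounts and DESeq2, without role or version, and the gene annotation is not given in the sources used here. The authors deposited a table for each line holding a normalised signal, the read count divided by a size factor, in which every value was a whole multiple of a step of 0.978 to 1.02 (within 0.001 of a step). Columns with the authors' log2 fold changes, p-values and adjusted p-values were not used.

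Groups and replicate numbers came from the sample titles. Per the study's methods, mutants of several litters were pooled for statistics, but the samples are not tied to litters, so p-values measure the spread between these samples. Values were analysed as log2(value + 1), a scale on which the change of low genes is understated. A gene was tested where 3 or more of the 6 samples of a line had a value of 10 or more. Each line was fitted in limma 3.58.1 (R 4.3.3; lmFit, eBayes with trend) with genotype as the only term, and differences between lines as interaction contrasts of all 18 samples. Tests were two-sided, with Benjamini-Hochberg adjustment over all genes tested and a threshold of 0.05. Both kinds of limma fit were tested on simulated data. A permutation test of 3 against 3 samples cannot give a p below 0.1 and was not used.

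Same-numbered Rptor samples deviated together (correlations of 0.22, 0.33 and 0.26 of deviations from the group means), and all 6 correlated best with their own number. The replicate number was therefore taken to pair them. This pairing was read from the values, since the labels give numbers only, and it did not enter the main fits. Alternatives were scaling to totals, no filter, a pseudocount of 0.1, the replicate block, all 18 samples in a fit (or the 12 samples of a pair of lines), and leaving out each sample. The 36 members, the cell cycle lists and the marker lists were chosen with earlier results of these data known. Values are given for 8 members in every line, for the 3 most positive and 3 most negative members of each line, for members whose effect differed between lines, and for at most 3 genes each way of each other list among those past the threshold.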

Additional observations from a re-analysis of the deposited data

Results flagged for a closer look

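Effects of the same kind of contrast differed between lines in 13 mitosis genes, in 15 comparisons, each by the interaction test in limma over 14550 genes. The Rptor effect less the Tfam effect, as a difference of log2 fold changes, was -0.42 for Ccnb1, -0.43 for Cdk1, -0.42 for Bub1, -0.43 for Ube2c, -0.41 for Nek2 and -0.41 for Ect2. The Rptor effect less the Cox10 effect was -0.29 for Ccna2, -0.36 for Cdk1, -0.32 for Aurka, -0.36 for Aurkb, -0.30 for Incenp, -0.28 for Bub3, -0.41 for Mad2l1, -0.55 for Ube2c and -0.25 for Kif2c. In every case the Rptor effect was the more negative. Not all of these differences held when single samples were left out. Against the Tfam line Ube2c, Cdk1 and Nek2 passed in all 18 such fits, Bub1 and Ect2 in 14 and Ccnb1 in 13. Against the Cox10 line Ube2c passed in all 18, Aurkb and Mad2l1 in 12, Aurka in 9, Cdk1 in 6 and Incenp in 4. The share of all genes with such a difference in this direction was 6.35% against the Tfam line and 4.21% against the Cox10 line.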

How the results depend on the processing

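Of the 30 mitosis genes lower in the Rptor line, 28 were called in every setting that kept all samples and 25 also in all 6 fits without a sample. Their number ranged from 25 (without control replicate 2 or 3) to 30 when a sample was left out, and the median log2 fold change from -0.32 to -0.27. In the Tfam line the number called ranged from 0 to 4 (4 without Tfam control replicate 3) and the median from -0.12 (without control replicate 2) to -0.05 (without deficient replicate 1). In the Cox10 line the ranges were 0 to 1 (1 without Cox10 deficient replicate 3) and -0.11 (without deficient replicate 2) to -0.02 (without deficient replicate 1), with -0.09 without control replicate 1. The number of members whose effect differed ranged from 3 to 10 between the Rptor and Tfam lines, from 1 to 12 between the Rptor and Cox10 lines, and stayed at 0 between the Tfam and Cox10 lines. Between the Rptor and Cox10 lines it was also 5 without a filter on low values, where more genes were tested (2.99% of all genes had a more negative Rptor effect), and 4 with only the 12 samples of the pair (3.22%). For the Rptor and Tfam lines the latter choice gave 9 in place of 6 (6.53%), and the cause of either move was not tested.

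With the replicate block, 32 members were called for Rptor, with all 30 kept and Cdc20 and Kif11 gained, 1 for Tfam (Incenp, adjusted p = 0.0305, where 3.07% of all genes were lower) and 0 for Cox10. For the differences between lines the same block was fitted in every line. With it 11 members differed between the Rptor and Tfam lines and 15 between the Rptor and Cox10 lines. Between the Tfam and Cox10 lines 0 differed. The numbers paired the samples for Rptor alone. Same-numbered samples of the Tfam line correlated at -0.31, -0.21 and 0.15, and 2 of 6 samples correlated best with their own number. Those of the Cox10 line correlated at 0.45, 0.20 and 0.05, and 3 of 6 did.

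No direction was reversed under any of these settings among members called in the main comparison. A count test on recovered reads had been planned and was not run. With 3 samples a group, a missed threshold leaves every change inside a member's 95% interval possible.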
